A study of Mus musculus with 6 samples.

Results

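Antimetabolites are drugs that resemble the building blocks of DNA and RNA, and 9 genes that decide how such drugs enter a cell, are activated, are broken down and find their target were compared between MTT and MPC cells. The genes were given as a list (Cda, Dck, Tyms, Rrm1, Rrm2, Tk1, Slc29a1, Umps and Dpyd), and all 9 were found among the 19937 genes measured. MPC cells are a mouse pheochromocytoma line from Nf1 knock-out mice, and MTT cells derive from liver metastases that MPC cells formed, so both lines share the Nf1 background. Neither line was treated. RNA of 3 samples of each line was hybridised to 1 Affymetrix Mouse Gene 1.0 ST array per sample. The labels give all 6 samples the same tissue source and a growth text that names the MTT line only, so the MPC grouping rests on the sample title and the cell type. The methods call the 3 MTT samples separate and do not describe those of MPC, so the spread among MPC arrays, on which p-values also rest, may be technical.

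A nucleoside drug crosses the membrane through carriers such as the equilibrative transporter, is phosphorylated by a kinase of the salvage pathway and then acts as a false nucleotide. Deaminases and the uracil breakdown pathway remove it before it acts. Thymidylate synthase and ribonucleotide reductase make the DNA precursors that dividing cells need, and drugs of this class block both. The study screened approved drugs in MTT cells, among them cytidine analogues, a fluorouracil prodrug and an antifolate. In its drug assays MPC cells served for dose curves of selected compounds. Whether the levels of these genes go with a drug response was not tested here.

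Signals are log2 values as the authors deposited them, after background subtraction and normalization over arrays, so a difference of 1 is a doubling. Signals of different genes are not on a common scale, and low signals compress folds. Array medians were alike, at 7.73 to 7.76 (log2) for MTT and 7.73 to 7.77 for MPC. Of 7 measured chromaffin markers, 6 had a mean signal above the median gene (Th, Dbh, Ddc, Chga, Chgb and Slc18a1), and Pnmt did not. Of these 7, Slc18a1, a vesicular monoamine transporter, was higher in MTT cells by 0.27 (log2, limma adjusted p = 0.0042), Chgb, a granin of the secretory granule, had a log2 difference of -0.15 (limma adjusted p = 0.023), and the other 5 did not pass. None of the 6 hepatocyte, 6 adrenal cortex, 6 macrophage and 5 endothelial markers had a mean signal above the median gene, while 2 of the 6 fibroblast markers, Col1a1 and Col1a2, did. Averaged over the fibroblast markers, the log2 signal of an array lay between 7.09 and 7.13 in MTT and between 7.09 and 7.19 in MPC. No marker of these other cell types differed between the lines at an adjusted p under 0.05, and their part in the results was not tested.

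Of the 9 genes, Cda was lower in MTT cells and none was higher, by limma's moderated test with Benjamini-Hochberg adjustment over all genes and a threshold of 0.05. Over all genes, 3.94% were lower and 3.93% higher by the same rule, so 1 gene of 9 is close to the background. The median log2 difference of the 9 genes (MTT minus MPC) was -0.023, against -0.0081 over all genes. The median absolute difference was 0.068, against 0.050 over all genes. The arrays of the lines did not overlap for 4 of the 9 genes (Cda, Dpyd, Slc29a1 and Rrm2), each lower in MTT cells. Counted in either direction, 27.2% of all genes did not overlap. As deposited, the log2 difference was below 0 for 7 of the 9 genes and for 54.7% of all genes. A lower signal in a culture can come from fewer cells that make the RNA or from less RNA per cell, and these cannot be told apart here.

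**Figure D1:**
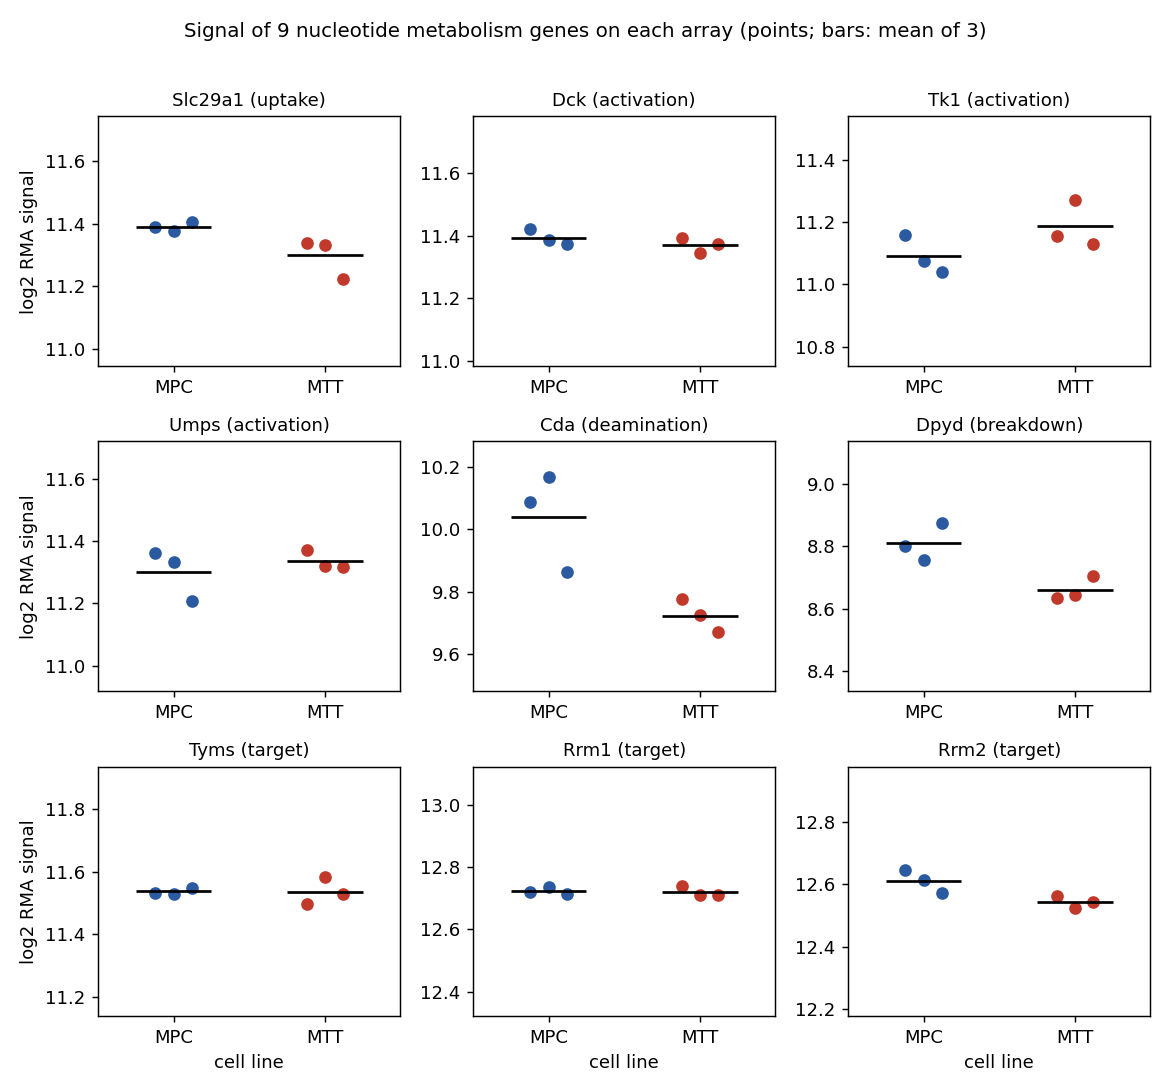
log2 RMA signal (vertical axis) of the 9 genes on the 3 MPC arrays (blue) and the 3 MTT arrays (red), with bars at the means of 3. Every panel spans an equal range of log2 units, so distances can be compared between panels and levels cannot. The points of the lines are apart for Cda, Dpyd, Slc29a1 and Rrm2.

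Cda encodes cytidine deaminase, which turns cytidine, deoxycytidine and drugs built on them, such as cytarabine, gemcitabine and decitabine, into uridine forms. Its log2 signal was 9.78, 9.72 and 9.67 on MTT arrays 1 to 3 and 10.09, 10.17 and 9.86 on MPC arrays 1 to 3. All MTT arrays lay under all MPC arrays, and MPC replicate 3 lay nearest to the MTT line. The means were 9.72 ± 0.053 (SD, n = 3) and 10.04 ± 0.16 (SD, n = 3), a log2 difference of -0.32 (standard error 0.075, 95% interval -0.49 to -0.14, limma adjusted p = 0.040). In linear terms the MPC signal was 1.24-fold that of MTT cells.

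The spread behind this call was wide. The within-line SD of Cda was 0.12, at or above which lay only 5.87% of all genes, and it came mainly from the MPC arrays. The adjusted p of limma rose to 0.0865 without MTT replicate 1, to 0.115 without MTT replicate 2, to 0.125 without MTT replicate 3, to 0.117 without MPC replicate 1 and to 0.111 without MPC replicate 2. Without MPC replicate 3 it was 0.0042 and the log2 difference -0.40. With ordinary variances the adjusted p was 0.20, and in a fit over all 34760 probe sets 0.14. Fits without 1 array also called fewer genes in all, at 891 to 1276 of the 19937 genes, against 1569 with all 6 arrays.

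Dck encodes deoxycytidine kinase, which adds the first phosphate to the same deoxycytidine drugs that Cda inactivates. Its log2 signal was 11.39, 11.35 and 11.37 on the MTT arrays and 11.42, 11.39 and 11.37 on the MPC arrays. The lines overlapped, and the log2 difference was -0.023 (95% interval -0.10 to 0.053, limma adjusted p = 0.77). The interval covers a change from -6.67% to 3.72% of the MPC level.

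Because both enzymes act on the same drugs, the difference between their log2 signals was taken on each array, for its shift between lines and not for its level. Dck minus Cda was 1.62, 1.62 and 1.71 on the MTT arrays and 1.33, 1.22 and 1.51 on the MPC arrays. Every MTT array lay above every MPC array, but Cda alone kept the lines apart too, while Dck overlapped. How often other gene pairs do so is not given here. The mean shift was 0.29 towards the kinase, which holds the log2 differences of Cda (-0.32) and Dck (-0.023), and it is given as a description with no test, since the pair was chosen with results of these data known.

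The sequence around the start of these genes is shown because this pair had the largest shift of the 3 taken here. It is reference sequence, not read from either line, and its part in the shift was not tested. Each window of RefSeq (GRCm38.p6) runs from 250 bases before the start to 50 bases after it, both for Cda (chr4:138367906-138368205, minus strand) and for Dck (chr5:88764763-88765062, plus strand). Capitals mark the GC box, GGGCGG or its reverse complement, the word that the factor Sp1 is known to bind.
Cda: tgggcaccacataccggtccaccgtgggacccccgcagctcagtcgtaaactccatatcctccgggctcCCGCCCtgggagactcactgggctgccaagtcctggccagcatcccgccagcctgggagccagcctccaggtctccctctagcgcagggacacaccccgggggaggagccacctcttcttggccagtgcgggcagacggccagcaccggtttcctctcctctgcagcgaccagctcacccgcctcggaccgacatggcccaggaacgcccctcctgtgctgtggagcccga
Dck: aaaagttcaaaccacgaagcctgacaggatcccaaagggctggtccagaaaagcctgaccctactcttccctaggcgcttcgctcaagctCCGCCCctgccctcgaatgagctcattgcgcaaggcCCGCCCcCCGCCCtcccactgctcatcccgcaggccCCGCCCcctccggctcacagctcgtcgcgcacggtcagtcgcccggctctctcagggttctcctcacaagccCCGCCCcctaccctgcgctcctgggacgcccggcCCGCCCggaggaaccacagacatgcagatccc
The word occurred 1 time in the Cda window and 6 times in the Dck window. It occurred in at least 1 window of 8 of the 9 genes, the exception being Rrm1, where Slc29a1 has 8 windows and each other gene 1. Counted likewise by gene, 38.2% of all 27025 genes with a window held it, as did 62.5% to 91.7% of the genes with a window in the other lists described here, and by window 35.7% of all 32851 did. These matches are letters in a window and not measured binding sites.

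Slc29a1 encodes the equilibrative nucleoside transporter, the main entry route for cytarabine and gemcitabine. Its log2 signal was 11.34, 11.33 and 11.22 on the MTT arrays and 11.39, 11.38 and 11.40 on the MPC arrays. The lines did not overlap, though MTT replicates 1 and 2 lay close to the MPC arrays and replicate 3 lowest. The log2 difference was -0.091 (95% interval -0.18 to 0.0020, limma adjusted p = 0.25) and did not pass.

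Umps and Dpyd act on fluorouracil from opposite sides. Umps, which makes UMP from orotate and also adds ribose phosphate to fluorouracil, read 11.37, 11.32 and 11.32 on the MTT arrays and 11.36, 11.33 and 11.21 on the MPC arrays. The lines overlapped, with MPC replicate 3 lowest, and the log2 difference was 0.035 (95% interval -0.072 to 0.14, limma adjusted p = 0.75). Dpyd, dihydropyrimidine dehydrogenase, catalyses the first and rate-limiting step by which uracil and fluorouracil are degraded. It read 8.63, 8.65 and 8.70 on the MTT arrays and 8.80, 8.76 and 8.87 on the MPC arrays.

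All MTT arrays of Dpyd lay under all MPC arrays, by the second largest difference of the 9 genes. Its log2 difference was -0.15 (standard error 0.041, 95% interval -0.24 to -0.054), with a limma adjusted p = 0.072 that missed the threshold. With a mean-variance trend the adjusted p was 0.042, and in a fit of only the 9968 genes above the median signal it was 0.017. Under the other 12 of 14 alternatives Dpyd did not pass. The adjusted p was 0.16 with ordinary variances and 0.17 in a fit over all probe sets. In the 6 limma fits without 1 array it was 0.082 to 0.20. The unadjusted p of Dpyd by limma was 0.0068, and of the 9 genes Cda and Dpyd had one under 0.05, as had 20.5% of all genes. Umps minus Dpyd was 2.74, 2.68 and 2.61 on the MTT arrays and 2.56, 2.58 and 2.34 on the MPC arrays. These values did not overlap either, but Dpyd alone kept the lines apart too, while Umps overlapped. How often other gene pairs do so is not given here. The shift of 0.18 towards Umps holds the log2 differences of Umps (0.035) and Dpyd (-0.15) and is given with no test.

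**Figure D2:**
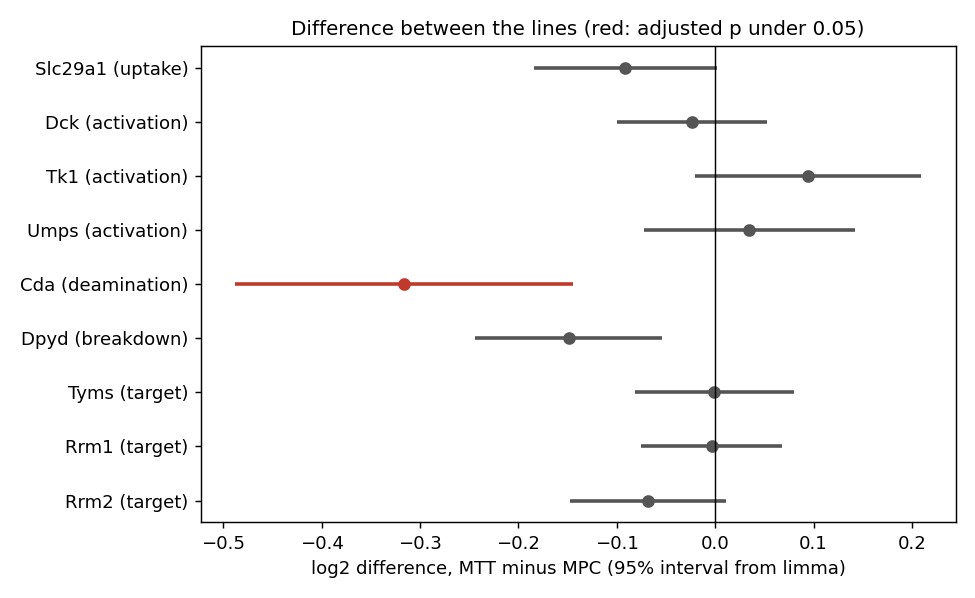
log2 difference between the lines (horizontal axis, MTT minus MPC) of the 9 genes (vertical axis), with 95% intervals from limma on 3 arrays a line. Only Cda, in red, passed the adjusted threshold. The interval of Dpyd also lies below 0, and those of the other 7 genes include 0.

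Tyms encodes thymidylate synthase, the enzyme that the active form of fluorouracil blocks. It read 11.50, 11.58 and 11.53 on the MTT arrays and 11.53, 11.53 and 11.55 on the MPC arrays, and the MTT values lay on both sides of the MPC values. The log2 difference was -0.00081 (95% interval -0.082 to 0.080, limma adjusted p = 0.99). A change outside -5.52% to 5.73% lies beyond that interval. The array has a separate probe set for the processed pseudogene Tyms-ps, with means of 8.89 ± 0.023 (MTT, SD, n = 3) and 8.90 ± 0.036 (MPC, SD, n = 3), and signal shared between such copies cannot be told apart.

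Rrm1 and Rrm2 encode the large and the small subunit of ribonucleotide reductase, the target of gemcitabine diphosphate and hydroxyurea. Rrm1 read 12.74, 12.71 and 12.71 on the MTT arrays and 12.72, 12.74 and 12.71 on the MPC arrays. It overlapped fully, with a log2 difference of -0.0037 (95% interval -0.075 to 0.068, limma adjusted p = 0.97). Rrm2 read 12.56, 12.53 and 12.54 on the MTT arrays and 12.65, 12.61 and 12.57 on the MPC arrays.

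Rrm2 did not overlap between lines, but MTT replicate 1 and MPC replicate 3 were only just apart. Its log2 difference of -0.068 (95% interval -0.15 to 0.011, limma adjusted p = 0.32) did not pass. Rrm2 minus Rrm1 was -0.18, -0.19 and -0.17 on the MTT arrays and -0.072, -0.12 and -0.14 on the MPC arrays, a shift of -0.065. The shift is given with no test.

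Both reductase windows are printed because they hold the CCAAT word, which the factor NF-Y is known to bind, and which besides them only Slc29a1 has among the 9 genes. Capitals mark CCAAT for Rrm1 (chr7:102441445-102441744, plus strand) and Rrm2 (chr12:24708004-24708303, plus strand).
Rrm1: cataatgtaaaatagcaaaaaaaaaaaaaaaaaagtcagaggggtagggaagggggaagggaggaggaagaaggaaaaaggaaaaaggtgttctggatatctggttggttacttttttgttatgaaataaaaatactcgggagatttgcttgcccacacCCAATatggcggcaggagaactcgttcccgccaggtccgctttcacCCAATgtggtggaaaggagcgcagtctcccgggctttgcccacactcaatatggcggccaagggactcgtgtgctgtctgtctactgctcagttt
Rrm2: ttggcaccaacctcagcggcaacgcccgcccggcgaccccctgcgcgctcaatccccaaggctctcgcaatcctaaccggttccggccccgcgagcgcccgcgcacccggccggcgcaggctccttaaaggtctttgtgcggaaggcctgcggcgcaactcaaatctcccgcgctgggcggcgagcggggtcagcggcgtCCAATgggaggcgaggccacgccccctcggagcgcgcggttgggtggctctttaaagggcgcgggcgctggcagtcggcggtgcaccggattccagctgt
CCAAT occurred 2 times in the Rrm1 window, 1 time in that of Rrm2 and in 1 of the 8 Slc29a1 windows, and 37.4% of all windows hold it on either strand. By gene, 3 of the 9 had it, against 41.1% of all genes. The E2F words TTTCCCGC, TTTGGCGC, TTTCGCGC and TTTGCCGC, searched on both strands, occurred in none of the 16 windows of the 9 genes. They occurred in 2.26% of all windows, or 2.60% of all genes, and in 7 of 16 replication genes that have a window. No match says only that these letters are not in this window.

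Tk1 encodes thymidine kinase, the S-phase enzyme that salvages thymidine and phosphorylates its analogues. Its brighter probe set read 11.16, 11.27 and 11.13 on the MTT arrays and 11.16, 11.07 and 11.04 on the MPC arrays. The lines overlapped through MPC replicate 1, and the log2 difference was 0.094 (95% interval -0.021 to 0.21, limma adjusted p = 0.34). Tk1 has 2 probe sets, and the second gave 0.058 (95% interval -0.065 to 0.18, limma adjusted p = 0.61). Tk1 had the largest positive difference of the 9 genes, and it did not pass.

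Within MPC cells, replicate 3 was the lowest array for 6 of the 9 genes and the highest for 3, and over all genes it was the lowest for 35.7% and the highest for 37.7%. Within MTT cells, replicate 1 was the highest for 6 of the 9 genes, against 32.9% of all genes. The median within-line SD of the 9 genes was 0.047, against 0.054 over all genes. None of the 9 lies on chromosome 13 or 19, whose genes as a group stood apart between the lines, with median log2 differences of 0.082 and -0.061. The genes whose signal over the 6 arrays was most like that of Cda, by Pearson's r, were Tmem134 (0.997), Slc10a7 (0.996), Selenbp2 (0.995), Ccdc86 (0.992) and Dcbld2 (0.992). None of these 5 passed limma's test of the lines itself, with adjusted p from 0.092 to 0.26. With 6 arrays and 19937 genes, 179 genes had an r over 0.95 with Cda.

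Around the 9 genes, 77 further genes of nucleotide metabolism were listed and 73 measured. Of these, 4 were higher and 2 lower in MTT cells by limma, and 67 did not pass, which is 6 of 73 against 7.87% of all genes. The median log2 difference was -0.0024.

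Of 9 measured genes of the thymidylate cycle and DNA precursor supply, 1 was higher and none lower, with a median log2 difference of -0.022. Shmt2, the mitochondrial serine hydroxymethyltransferase that feeds one-carbon units into folate, read 11.73, 11.63 and 11.68 on the MTT arrays and 11.44, 11.42 and 11.38 on the MPC arrays. The lines did not overlap, and it rose by 0.27 in log2 terms (95% interval 0.18 to 0.35, limma adjusted p = 0.0049), a call that held in all 6 fits without 1 array. Rrm2b, the p53-induced small reductase subunit, differed by -0.17 on the log2 scale (limma adjusted p = 0.064), with no overlap between lines, and passed without MTT replicate 3 (adjusted p = 0.027). Samhd1, which degrades DNA precursors, had one of -0.073 (limma adjusted p = 0.31).

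Of 12 genes that carry nucleosides and folates or act on folate glutamates, 1 was lower and none higher, with a median log2 difference of -0.021. Slc19a1, the reduced folate carrier by which methotrexate enters cells, read 11.47, 11.49 and 11.46 on the MTT arrays and 11.66, 11.59 and 11.64 on the MPC arrays. Its log2 difference was -0.16 (95% interval -0.24 to -0.082, limma adjusted p = 0.026), and with arrays left out singly the call held only without MPC replicate 2 (p up to 0.0880 otherwise). Slc29a3, a nucleoside transporter of inner membranes, and Ggh, which removes glutamates from folates, had log2 differences of 0.093 and -0.077 and did not pass.

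None of 9 measured pyrimidine salvage genes besides the 9 genes above had an unadjusted limma p under 0.05, against 20.5% of all genes. These salvage genes had differences from -0.054 to 0.054, and none passed. Among them Uck2, a kinase that starts the activation of azacitidine, had means of 12.55 ± 0.0089 (MTT, SD, n = 3) and 12.53 ± 0.0069 (MPC, SD, n = 3). Upp2, Uck1 and Uckl1 had log2 differences of -0.054, 0.054 and 0.050. Of 9 genes of pyrimidine synthesis, Ctps2, which makes CTP from UTP, was higher by 0.15 (limma adjusted p = 0.047), and leaving out any 1 of the 6 arrays ended the call (adjusted p 0.0843 to 0.140). Nme3 and Nme1, nucleoside diphosphate kinases, had log2 differences of -0.11 and 0.079 and did not pass.

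Of 10 genes of pyrimidine breakdown and nucleotidases, 1 was lower. Nt5c2, a cytosolic nucleotidase that also dephosphorylates thiopurine nucleotides, read 10.79, 10.79 and 10.77 on the MTT arrays and 11.03, 11.02 and 11.01 on the MPC arrays. Its log2 difference was -0.24 (95% interval -0.31 to -0.17, limma adjusted p = 0.0028), and it lies on chromosome 19, where 111 of 675 genes were lower and 7 higher. The nucleotidases Nt5c and Nt5c3b had log2 differences of 0.15 and 0.085 and did not pass, although Nt5c did without MTT replicate 3 (adjusted p = 0.040). Nt5c3b passed with ordinary variances (adjusted p = 0.049).

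Purine genes showed 2 calls among salvage and breakdown and none in synthesis. Tpmt, which methylates thiopurines such as thioguanine, read 10.38, 10.51 and 10.41 on the MTT arrays and 10.13, 10.10 and 10.12 on the MPC arrays. It rose by 0.32 in log2 terms (95% interval 0.22 to 0.42, limma adjusted p = 0.0035) and is encoded on chromosome 13, where 249 of 732 genes were higher and 12 lower. The part of either chromosome in the results of Tpmt and Nt5c2 was not tested, and both calls held in all 6 fits without 1 array. For Pnp, purine nucleoside phosphorylase, MTT exceeded MPC by 0.17 (limma adjusted p = 0.025). Of those 6 fits, only that without MTT replicate 3 kept the call of Pnp, and the p reached 0.0927 in the others. Of 12 measured genes of purine synthesis none passed by limma, and 4 had an unadjusted p under 0.05, against 20.5% of all genes. The smallest p belonged to Adssl1, Adss and Prps2, with log2 differences of -0.14, -0.084 and -0.083.

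**Figure D3:**
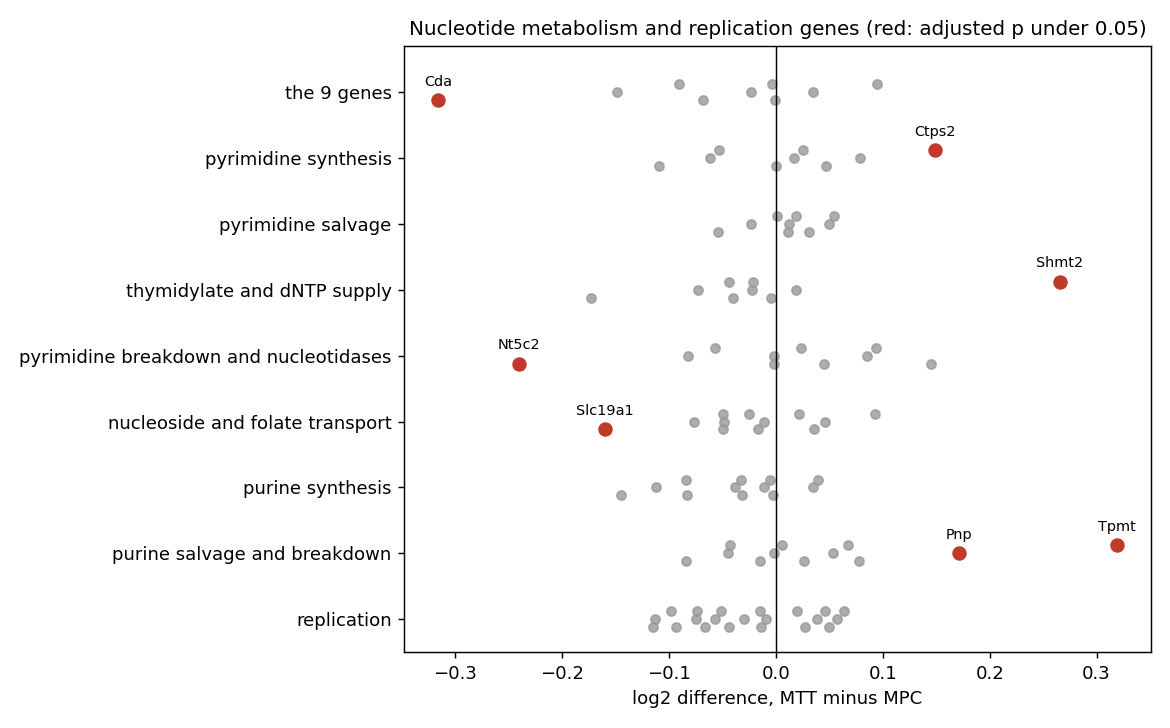
log2 difference between the lines (horizontal axis, MTT minus MPC) of each measured gene, by list (vertical axis, with a vertical offset for legibility only). Red points with names passed limma's adjusted threshold. Of the 9 genes only Cda did, at -0.32, and the other 6 named genes lie between -0.24 and 0.32.

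Since Tyms, Rrm1, Rrm2 and Tk1 are made mainly in S phase, 21 replication genes were set beside them. None passed limma's test, and the median log2 difference was -0.030, with a range from -0.11 to 0.063. Of the 21, 5 had an unadjusted limma p under 0.05, against 20.5% of all genes. Ccne2, a cyclin of S-phase entry, had the smallest p, with a log2 difference of -0.11 (limma adjusted p = 0.097). Gins2, of the replicative helicase, and Pola1, the catalytic subunit of the primase polymerase, had log2 differences of -0.093 and -0.098.

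**Figure D4:**
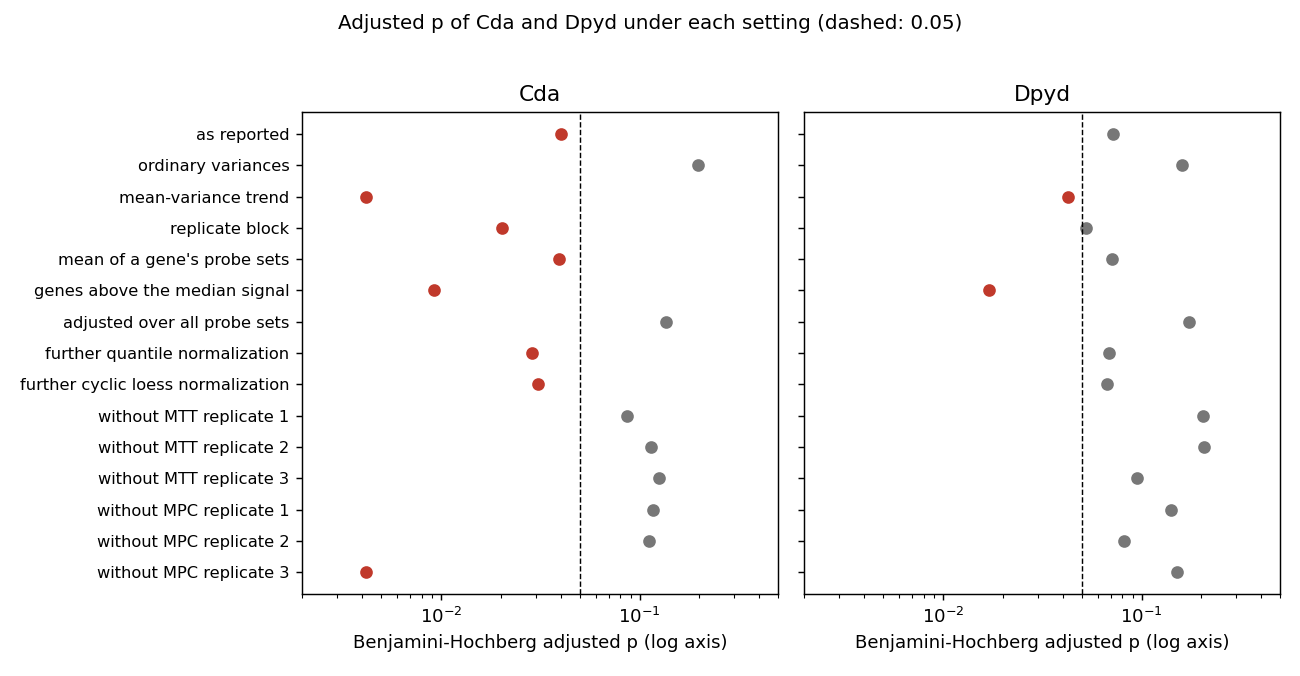
Adjusted p (horizontal axis, log scale) of Cda and Dpyd under each way of fitting the same comparison (vertical axis), with the threshold of 0.05 dashed and red points below it. Cda passed in the fit as reported and under 7 of 14 alternatives, and Dpyd under 2 of 14.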

How the data were processed

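Gene expression was measured on 6 Affymetrix Mouse Gene 1.0 ST arrays, 3 of MTT and 3 of MPC cells. The authors deposited log2 values after RMA, a procedure of background subtraction, quantile normalization and a summary of each probe set from its probes. RMA in Partek and in R is named in the methods and Affymetrix Expression Console in the submitters' processing notes, with versions and build not given in the sources used here. Quantile normalization brings the arrays towards a common distribution, so only changes relative to other genes can be seen. The deposited array medians still differed slightly, from 7.73 to 7.77 (log2).

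Of 34760 probe sets, the 21640 with exactly 1 symbol in the platform annotation were kept (21553 matched the RefSeq table of GRCm38.p6), and the brightest of a gene was used, which gave 19937 genes. The lines were compared with limma 3.58.1 in R 4.3.3 (lmFit and eBayes, two-sided, Benjamini-Hochberg over all genes, threshold 0.05). The methods name an analysis of variance, for which the alternative with ordinary variances stands. Python 3.11.15 and matplotlib 3.10.9 served for the plots. The script was tested on simulated data. Precision is limited by the number of arrays. The members and lists were chosen with earlier results of these data known. Named were all 9 genes and, of each other list, every gene past the threshold or up to 3 with the smallest p, and, for Cda, the 5 genes most like it. Uck2 and Tyms-ps were added after their values were seen. Alternatives changed the variance model (ordinary variances or a mean-variance trend), the design (replicate block), the probe sets (their mean per gene, or a fit over all), the genes (those above the median signal), the normalization (2 further ones) or the arrays (each left out once). The second probe set of Tk1 was added after the data were seen. Promoter windows came from RefSeq by symbol, and all 9 genes matched. Listed genes without a value were not analysed here.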

Additional observations from a re-analysis of the deposited data

How the results depend on the processing

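With ordinary variances and in the fit over all probe sets 0 of the 9 genes were lower in MTT cells, and with a mean-variance trend or only genes above the median signal 2 were (Cda and Dpyd). Without 1 array the count was 0 to 1. None of the 9 was higher under any alternative, and Dck, Rrm2, Tk1 and Slc29a1 kept their direction and stayed short of the threshold under all. Tyms and Rrm1 changed sign after a further quantile normalization (log2 differences 2.4e-05 and 0.0042) and after cyclic loess (0.0069 and 0.0032). After either of these 5 of the 9 genes were below 0, against 7 of 9 as deposited, and 49.4% and 48.9% of all genes were, against 54.7%. Without 1 array the log2 difference was -0.025 to 0.019 for Tyms, -0.013 to 0.0027 for Rrm1 and -0.012 to 0.065 for Umps, and Umps was below 0 only without MPC replicate 3. The shifts of Dck minus Cda, Umps minus Dpyd and Rrm2 minus Rrm1 kept their sign, at 0.22 to 0.37, 0.11 to 0.23 and -0.079 to -0.045.

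In pyrimidine synthesis 0 genes were higher with ordinary variances, with the replicate block and over all probe sets, and 1 was lower with the trend and above the median signal. In thymidylate and precursor supply 1 was lower with the trend and above the median signal. In breakdown and nucleotidases 1 was higher with ordinary variances, and 2 with the trend and above the median signal. Among the genes of nucleoside and folate transport and folate glutamates 0 were lower with ordinary variances, the replicate block and all probe sets. In purine synthesis 2 were lower with the trend. In purine salvage 1 was higher with ordinary variances and over all probe sets. Among replication genes 1 was lower with the trend and above the median signal. Without 1 array, counts were 0 higher in pyrimidine synthesis, 0 to 1 lower in precursor supply and 0 to 1 higher in breakdown. They were 0 to 1 lower among the transport and folate glutamate genes and 1 to 2 higher in purine salvage. Over all genes 824 passed with ordinary variances and 2416 with the trend, against 1569. The cause of these changes was not tested.

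The replicate numbers do not pair the samples by the labels. The deviations of same-numbered arrays correlated at 0.12, 0.074 and 0.25, and those of differently numbered arrays at -0.16 to 0.066. Each array was closest to its own number, though MTT replicate 2 with MPC replicate 2 (0.074) only narrowly. MTT replicate 2 with MPC replicate 1 gave 0.059, and MTT replicate 1 with MPC replicate 2 gave 0.066. With the replicate block Cda kept its call (adjusted p = 0.020), Dpyd did not pass (adjusted p = 0.052) and 1501 genes passed in all.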
